A study of Mus musculus with 9 samples.

Results

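Myeloid lectin, Fc and paired immune receptors are surface proteins by which microglia, macrophages, monocytes and neutrophils read sugars, lipids, antibody and cell-bound ligands. They were taken by symbol from the deposited table as every Clec gene with a digit after the stem, the Siglec, Lilr, Pilr, Trem, Treml and Cd300 genes, Fcgr1, Fcgr2b, Fcgr3, Fcgr4, Pira2 and Pirb, with symbols ending in -ps left out. This gave 66 of 35112 genes. Polyadenylated RNA had been sequenced from brain of wild-type C57BL/6 mice, 3 separate mice a group, 72 hours after treatment. The groups were intracerebral haemorrhage with P7C3-A20, an aminopropyl carbazole (ICH+P7C3-A20), intracerebral haemorrhage alone (ICH), and sham. The labels used here give no age, brain region, dose or way of inducing the bleed. A library is called by its group and number (ICH 2).

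Several of these families hold both activating and inhibitory receptors. Many activating members have short tails and signal through the adaptors encoded by Tyrobp (DAP12) or Fcer1g (the Fc receptor gamma chain), which recruit the kinase Syk, or by Hcst (DAP10), which recruits phosphoinositide 3-kinase, while inhibitory members carry tail motifs that recruit the phosphatases encoded by Ptpn6 and Inpp5d. In brain they are known above all from microglia and from macrophages that enter after injury. The symbol rule also takes Clec genes that encode no such receptor, among them the endothelial Clec14a, the endosomal Clec16a, the neuronal Clec2l and the secreted Clec3b.

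Libraries held 51537047 to 63324728 estimated counts. Libraries of a group correlated across genes, on a log scale, at 0.949 to 0.966, and those of different groups at 0.916 to 0.960. ICH+P7C3-A20 1 correlated with the sham libraries at 0.945 to 0.946 and with the ICH libraries at 0.928 to 0.933. Of the 66 genes, Clec2f was at 0 in all libraries, 65 had a count in at least 1 library and 33 in all of them. The filter on low counts left 54 for testing. The 11 detected but untested genes were Cd300c, Cd300ld2, Clec2e, Clec2g, Clec2h, Clec4a4, Clec4b1, Clec4g, Pilrb1, Siglec15 and Trem3, none above 43 counts in any library. Of the 54 tested, 27 had the minimum count in all sham libraries. Another 22 had it in all libraries of a group other than sham, and were kept through groups where they were higher. Of the CD300 and Clec genes they were Cd300lb, Cd300ld, Cd300ld3, Cd300ld4, Cd300ld5, Cd300lf, Cd300lg, Clec10a, Clec2i, Clec4a1, Clec4d, Clec4e and Clec4n. The rest were Lilra5, Lilra6, Pilra, Pilrb2, Pira2, Siglecf, Trem1, Treml1 and Treml4. A rise over sham in these 22 is partly set by the filter. The other 5 (Cd300e, Clec12b, Clec1b, Clec9a and Siglecg) had it in all libraries of no group. Counts below are therefore given over all 66 genes.

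The first question was what the bleed alone did to these transcripts. Receptor genes rose with ICH: edgeR called 39 of 66 higher and 0 lower at an adjusted p under 0.05, against 15.6% higher and 10.4% lower of all 21900 genes tested. No member was lower at an unadjusted p under 0.05 either, and none was called lower by DESeq2 or limma. For 41 members all ICH libraries lay above all sham libraries in scaled counts, and for 0 below (23.3% and 18.8% of all genes). The median log2 change of the 54 tested members was 3.11, against 0 over all genes, and it was 2.64 over the 27 with the minimum count in all sham libraries. Among genes with the minimum count in all sham libraries 20 rose, and among those without it 19 rose. Activating receptors rose in 18 of 24 cases, inhibitory receptors in 10 of 14, and the remaining genes, of neither or of unclear sign, in 11 of 28. In bulk tissue more cells of a type and more RNA per cell cannot be told apart.

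The second question was what the compound altered after the bleed. In ICH+P7C3-A20 against ICH edgeR called 20 of 66 lower and 0 higher, against 6.05% lower and 2.69% higher of all genes, with a median of -1.26 for the tested members, -1.07 for the 27 with the minimum count in all sham libraries, and -0.01 over all genes. At an unadjusted p under 0.05, 30 members were lower and 2 higher, and neither DESeq2 nor limma called any member higher. In scaled counts the groups did not overlap, with ICH+P7C3-A20 lower, for 34 members (18.5% of all genes), and higher for 3 (15.1%), which were Clec11a, Clec18a and Clec2l. Leaving out 1 library brought the 20 to 14 without ICH+P7C3-A20 1, 12 without ICH 1, 9 without ICH 2 and 12 without ICH 3. Lower calls took 9 of 24 activating, 5 of 14 inhibitory and 6 of 28 other genes. Against sham, ICH+P7C3-A20 had 26 of 66 members higher and 0 lower (4.58% and 0.744% of all genes). At an unadjusted p under 0.05, 36 were higher and 0 lower, and no member was called lower by DESeq2 or limma. Of the 27 with the minimum count in all sham libraries, 15 were called higher (median 1.34, against 0.03 over all genes). The rest of the 26 were kept by the filter through groups other than sham, so their rise is partly set by it. Without overlap, 38 lay above sham and 0 below (12.6% and 7.84%), with such members among the 38. The 26 became 15 when only those 2 groups were fitted and 4 to 14 with limma on log2 FPKM. These comparisons share the ICH or the sham libraries, so their values are given side by side and are not independent of each other.

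**Figure D1:**
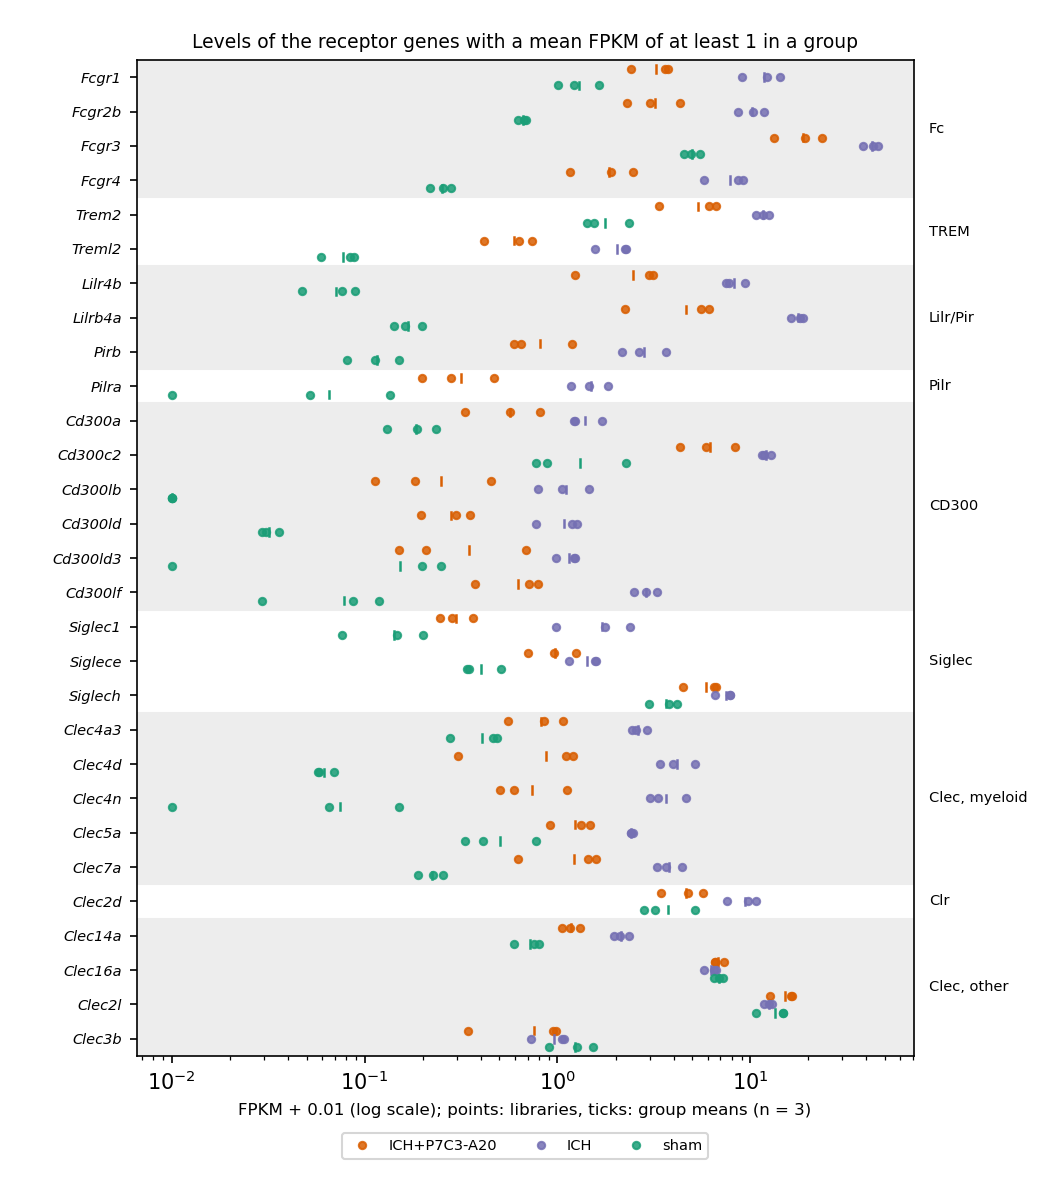
Level of each receptor gene with a mean of at least 1 FPKM in a group, as FPKM + 0.01 on a log axis, with a point per library and a tick at the mean (n = 3 a group); values at 0 lie at the left end. ICH points lie to the right of sham points for all genes but Clec16a, Clec2l and Clec3b, with ICH+P7C3-A20 mostly between.

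All 4 Fc gamma receptor genes, whose products bind immunoglobulin G, rose with ICH and were lower in ICH+P7C3-A20 than in ICH. Fcgr3 (ENSMUSG00000059498, chr1:171051174-171064935, minus strand), a low-affinity activating receptor, was the most abundant at 13.3, 19.2 and 23.4 FPKM in ICH+P7C3-A20, 46.0, 43.1 and 38.5 FPKM in ICH, and 4.51, 4.91 and 5.49 FPKM in sham. Fcgr1, the high-affinity activating receptor, had 2.39, 3.71 and 3.62 FPKM in ICH+P7C3-A20, 9.03, 12.1 and 14.3 FPKM in ICH, and 0.991, 1.21 and 1.64 FPKM in sham. In both genes the 3 groups separated fully, with ICH highest and sham lowest. Fcgr4, an activating receptor for the IgG2a and IgG2b subclasses, had 1.15, 1.89 and 2.44 FPKM in ICH+P7C3-A20, 5.77, 9.16 and 8.66 FPKM in ICH, and 0.246, 0.208 and 0.272 FPKM in sham. Fcgr2b, the inhibitory member, had 2.29, 3.00 and 4.30 FPKM in ICH+P7C3-A20, 10.3, 11.8 and 8.58 FPKM in ICH, and 0.676, 0.657 and 0.614 FPKM in sham. Again no group overlapped another. From the estimated counts, edgeR gave log2 changes with ICH against sham of 4.96 ± 0.35 for Fcgr4, 3.92 ± 0.27 for Fcgr2b, 3.16 ± 0.22 for Fcgr1 and 3.06 ± 0.20 for Fcgr3 (adjusted p 6.84e-06 to 8.07e-06). For ICH+P7C3-A20 against ICH they were -2.05 ± 0.30, -1.62 ± 0.24, -1.81 ± 0.21 and -1.14 ± 0.19 in the same order (adjusted p 0.00596 to 0.00768), and none of these 4 calls ended when any 1 library was left out. Against sham, ICH+P7C3-A20 stayed higher by 2.91 ± 0.33 for Fcgr4, 2.30 ± 0.25 for Fcgr2b, 1.35 ± 0.21 for Fcgr1 and 1.92 ± 0.19 for Fcgr3 (adjusted p up to 0.00416).

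Because FPKM is scaled by length, the activating and inhibitory genes can be set against each other within a library. The sum of Fcgr1, Fcgr3 and Fcgr4 was 7.37, 8.26 and 6.86 times the Fcgr2b level in ICH+P7C3-A20, 5.90, 5.48 and 7.16 times in ICH, and 8.51, 9.63 and 12 times in sham. Fcgr3 made up most of this sum. Means of Fcgr3, Fcgr1 and Fcgr4 were 42.5, 11.8 and 7.86 FPKM in ICH and 4.97, 1.28 and 0.242 FPKM in sham. Fcgr4 alone rose more with ICH than Fcgr2b did (log2 change 4.96 against 3.92). The ratio was lower in all 3 ICH libraries than in any sham library, 6.18 ± 0.874 against 10.1 ± 1.81 (SD, n = 3 each), a log2 difference of -0.70. An exact two-sided permutation test gave p = 0.1, the smallest that 3 against 3 libraries allow (0.15 adjusted over the 3 comparisons). ICH+P7C3-A20 averaged 7.50 ± 0.713 and overlapped ICH (log2 difference 0.28, exact permutation p = 0.2, adjusted 0.2), and lay below sham in all libraries (-0.41, exact permutation p = 0.1, adjusted 0.15). Of the 75-base words of Fcgr3 transcripts 5.42% occur in Fcgr2b, and of those of Fcgr2b 5.43% occur in Fcgr3 or elsewhere.

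**Figure D2:**
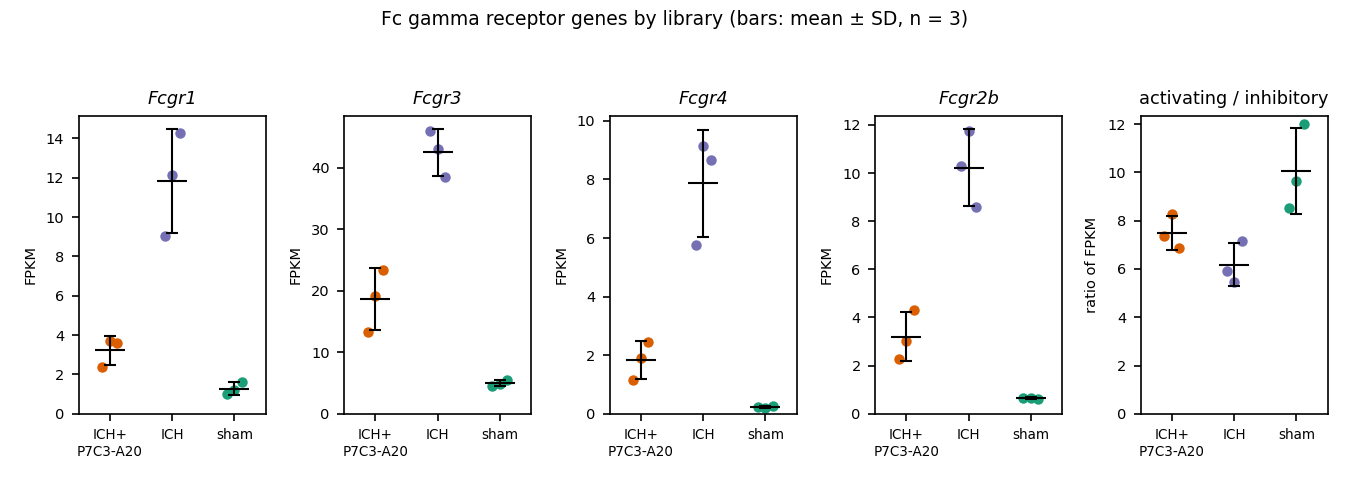
FPKM of the activating genes Fcgr1, Fcgr3 and Fcgr4, of the inhibitory gene Fcgr2b, and the ratio of the summed activating genes to Fcgr2b, with a point per library and bars at the mean ± SD (n = 3). The ratio lies between 5.48 and 7.16 in ICH and between 8.51 and 12 in sham.

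TREM receptors, a single-domain immunoglobulin-like family encoded together on chromosome 17, rose with ICH in 5 of 6 genes, and the untested Trem3 had 19 counts at most. Trem2 (ENSMUSG00000023992, chr17:48346401-48354147, plus strand), the microglial receptor for lipids and apolipoprotein E that signals through DAP12, was at 3.34, 6.09 and 6.59 FPKM in ICH+P7C3-A20, 11.6, 10.7 and 12.5 FPKM in ICH, and 1.41, 1.54 and 2.34 FPKM in sham. Treml2, the TREM-like transcript 2 found on myeloid and B cells, was at 0.405, 0.619 and 0.726 FPKM in ICH+P7C3-A20, 1.55, 2.27 and 2.24 FPKM in ICH, and 0.0494, 0.0741 and 0.0779 FPKM in sham. Neither gene had overlapping groups, and ICH+P7C3-A20 1 was the lowest library of its group for both. With ICH the edgeR log2 change of Trem2 was 2.68 ± 0.23 (adjusted p = 1.96e-05) and that of Treml2 4.78 ± 0.32 (7.40e-06). In ICH+P7C3-A20 against ICH the changes were -1.07 ± 0.21 for Trem2 (adjusted p = 0.0149) and -1.73 ± 0.27 for Treml2 (0.00731). The Trem2 call ended without ICH 1, 2 or 3 (adjusted p 0.0536, 0.0568 and 0.0507), with changes of -1.06, -1.06 and -1.07, while that of Treml2 held without each library.

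The other TREM genes were scarce, and Trem1, Treml1 and Treml4 were kept by the filter through groups other than sham, where they were higher. Trem1, which amplifies inflammatory signals in neutrophils and monocytes, had 12, 26 and 16 counts in ICH+P7C3-A20, 46, 91 and 61 counts in ICH and none in sham. Treml1, best known from platelets, had 7, 25 and 7 counts in ICH+P7C3-A20, 29, 12 and 26 counts in ICH and none in sham. Treml4, a DAP12-coupled receptor of myeloid cells, had 8, 30 and 39 counts in ICH+P7C3-A20, 98, 150 and 135 counts in ICH, and 0, 0 and 5 counts in sham. Against a floor of 3 counts over the sham group, Trem1 was at least 68.5-fold and Treml1 at least 22.7-fold higher in ICH (edgeR adjusted p = 0.000237 and 0.00464). Treml4 rose by a log2 change of 6.24 ± 0.93, 9.97 without sham 3 (adjusted p 0.000762 and 0.000424). None of the 3 passed the test for ICH+P7C3-A20 against ICH (adjusted p 0.0732 to 0.646), and ICH+P7C3-A20 and ICH did not overlap for Trem1 and Treml4. In ICH+P7C3-A20 against sham all 5 tested TREM genes were called, but the calls ended for Treml1 without ICH+P7C3-A20 2 or 3 or any sham library (adjusted p 0.0534 to 0.0882), and for Treml4 without ICH+P7C3-A20 2 (0.0670) or 3 (0.120) or sham 1 (0.101) or 2 (0.0849). Without sham 3 its change against sham was 7.69, against 3.96 with all libraries.

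The leukocyte immunoglobulin-like and paired immunoglobulin-like receptors, which read MHC class I and other ligands, held the largest rises with ICH among members with counts in sham. Lilrb4a (ENSMUSG00000112148, chr10:51490956-51496611, plus strand), the inhibitory gp49B, was at 2.23, 6.06 and 5.51 FPKM in ICH+P7C3-A20, 18.1, 16.3 and 18.7 FPKM in ICH, and 0.133, 0.189 and 0.152 FPKM in sham. Its neighbour Lilr4b (gp49A), which lacks the inhibitory tail motifs, was at 1.22, 2.98 and 3.12 FPKM in ICH+P7C3-A20, 7.46, 7.78 and 9.42 FPKM in ICH, and 0.0789, 0.0659 and 0.0372 FPKM in sham. The groups separated fully for both, and ICH+P7C3-A20 1 lay well below its group's other 2 libraries. With ICH the counts scaled to library size (CPM) were 108 ± 3.09 against 1.06 ± 0.217 in sham for Lilrb4a, 102-fold higher (log2 change 6.67 ± 0.34, edgeR adjusted p = 4.95e-06). For Lilr4b they were 52 ± 3.90 CPM in ICH against 0.432 ± 0.156 CPM in sham, 120-fold higher (log2 change 6.92 ± 0.39, adjusted p = 6.02e-06). ICH+P7C3-A20 against ICH gave -1.91 ± 0.27 for Lilrb4a (adjusted p = 0.00649) and -1.70 ± 0.29 for Lilr4b (0.00900), both called without each library in turn. Transcripts of the pair are alike: 40.3% of the 75-base words of Lilrb4a and 15.0% of those of Lilr4b occur in another gene, chiefly each other and the overlapping readthrough Gm49339, so the split between them is uncertain.

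Pirb, the inhibitory paired receptor for MHC class I, was at 0.638, 0.583 and 1.17 FPKM in ICH+P7C3-A20, 2.65, 3.64 and 2.14 FPKM in ICH, and 0.141, 0.103 and 0.0714 FPKM in sham. Pira2, its activating counterpart, had 11, 19 and 27 counts in ICH+P7C3-A20, 128, 174 and 109 counts in ICH, and 4, 5 and 0 counts in sham. No group overlapped another in either gene. They rose with ICH by 4.63 ± 0.45 and 5.47 ± 0.75 log2 units (edgeR adjusted p = 4.41e-05 and 0.000440), Pira2 by 6.07 without sham 2 and 4.85 without sham 3. In ICH+P7C3-A20 they were lower than in ICH, by a log2 change of -1.75 ± 0.38 and -2.80 ± 0.62 (adjusted p = 0.0217 and 0.0228). The Pirb call ended without ICH+P7C3-A20 1 (-1.64, adjusted p = 0.0829), ICH 1 (-1.79, 0.0642) or ICH 2 (-1.44, 0.0929), and that of Pira2 without any library of the 2 groups but ICH+P7C3-A20 3 (-2.97 to -2.53, 0.0521 to 0.104). Of Pira2's 75-base words 88.3% occur in other genes, and of Pirb's 26.9%, so these counts too may be split among copies. The activating Lilra5 and Lilra6 also rose with ICH, by 4.25 ± 1.01 and 4.80 ± 1.17 (adjusted p = 0.0106 and 0.0122), from 14 and 4 counts in all over the sham group. Like Pira2, both genes were kept by the filter through groups other than sham, where they were higher. Lilra5 reached 9.35 without sham 3. The Lilra6 change was 8.34 without sham 1 and 4.21 without sham 3, and its call ended without ICH 2 (4.03, adjusted p = 0.0827).

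Promoters of Pirb, Pira2 and Lilra6 are shown because they hold the same letters as those of some other risen members. The motif searched was GAGGAAGT, the core read by PU.1, the myeloid factor encoded by Spi1, on both strands of the window from 250 bases before to 50 bases after each RefSeq start (GRCm38.p6). Of the rest of this family, Lilrb4a had no window, and the windows of Lilr4b and Lilra5 did not hold the motif. Capitals mark the motif, and each sequence runs 5′ to 3′ along the gene. The Pirb, Pira2 and Lilra6 windows are at chr7:3720469-3720528, chr7:3845166-3845225 and chr7:3915618-3915677 on the minus strand, and any pair of them differed at 2 of 60 bases.
Pirb: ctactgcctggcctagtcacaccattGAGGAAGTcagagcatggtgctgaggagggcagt
Pira2: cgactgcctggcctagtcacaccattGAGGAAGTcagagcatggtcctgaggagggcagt
Lilra6: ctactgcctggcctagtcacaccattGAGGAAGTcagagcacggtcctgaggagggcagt
The Fcgr4 window, at chr1:171018876-171018935 on the plus strand, holds the motif on the opposite strand, beginning 24 bases before the start.
Fcgr4: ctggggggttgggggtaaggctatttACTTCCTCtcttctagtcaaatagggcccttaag
The Cd300ld window is at chr11:114989996-114990055 on the minus strand. Cd300lf, whose motif begins at the start base itself, is not printed.
Cd300ld: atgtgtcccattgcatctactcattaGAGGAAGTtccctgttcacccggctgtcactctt
The Cd300ld3 and Cd300ld5 windows, at chr11:115048484-115048543 and chr11:115037844-115037903 on the minus strand, differed from each other at 4 of 60 bases, and that of Cd300ld4 was identical to that of Cd300ld5.
Cd300ld3: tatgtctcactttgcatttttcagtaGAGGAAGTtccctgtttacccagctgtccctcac
Cd300ld5: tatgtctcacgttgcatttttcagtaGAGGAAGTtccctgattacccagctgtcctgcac
Windows were found for 53 members (58 windows), and 9 members held the motif, 15.5% of member windows against 3.2% of 32851 windows of all genes. The 7-letter form GAGGAAG, which GAGGAAGT contains, was in 43.1% of member windows and 13.6% of all. Of 34 members called higher in ICH that had a window, 8 held GAGGAAGT, and of 19 others 1 did. Most of the 9 are copies within the Cd300 or the Pir and Lilr clusters, so they are few independent sequences. A match describes letters and was not tested as a bound site.

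CD300 receptors, which bind phosphatidylserine and other membrane lipids and lie in a cluster on chromosome 11 with Cd300lg farther off, rose with ICH in 7 of 12 genes. Cd300c2, an activating member, was the most abundant at 4.28, 5.89 and 8.28 FPKM in ICH+P7C3-A20, 11.7, 11.5 and 12.8 FPKM in ICH, and 0.867, 0.767 and 2.26 FPKM in sham. Cd300lf, an inhibitory member, was at 0.365, 0.701 and 0.783 FPKM in ICH+P7C3-A20, 2.49, 3.27 and 2.86 FPKM in ICH, and 0.0770, 0.108 and 0.0193 FPKM in sham. Both separated the 3 groups. Cd300lb, an activating DAP12 partner, was at 0.104, 0.443 and 0.172 FPKM in ICH+P7C3-A20, 0.784, 1.44 and 1.05 FPKM in ICH, and at 0 in all sham libraries, at least 220-fold higher in ICH against the floor (edgeR adjusted p = 0.000101). The log2 changes with ICH were 3.18 ± 0.37 for Cd300c2, 5.25 ± 0.52 for Cd300lf, 5.44 ± 0.41 for the activating Cd300ld and 2.87 ± 0.35 for the inhibitory Cd300a (adjusted p 1.01e-05 to 0.000199). Cd300lf overlaps Rab37 on the other strand, and reads of the pair can be told apart only if strand was used in counting.

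Lower in ICH+P7C3-A20 than in ICH were 4 CD300 genes: Cd300ld by a log2 change of -1.92 ± 0.32, Cd300lf by a log2 change of -2.17 ± 0.44, Cd300lb by a log2 change of -2.19 ± 0.51 and Cd300a by a log2 change of -1.26 ± 0.33 (edgeR adjusted p 0.00845 to 0.0402). Only the Cd300ld call held without each library in turn. That of Cd300lf ended without ICH+P7C3-A20 1 (-1.94, adjusted p = 0.0599) or ICH 2 (-2.00, 0.0687). Those of Cd300a and Cd300lb ended without any of 5 libraries, all but ICH+P7C3-A20 2 (adjusted p 0.0820 to 0.137 and 0.0731 to 0.128), and without that library Cd300lb was at -2.83. Cd300c2 did not pass (-0.90 ± 0.34, adjusted p = 0.133). Against sham, ICH+P7C3-A20 had Cd300a, Cd300c2, Cd300lb, Cd300ld and Cd300lf higher, and the Cd300a call ended without ICH+P7C3-A20 2 (0.0705) or 3 (0.0805) or sham 1 (0.0714).

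The near-identical Cd300ld3, Cd300ld4 and Cd300ld5 share 81.5%, 90.4% and 100% of their 75-base words with each other or Cd300ld2, so their counts are uncertain individually. Cd300ld3 was called higher with ICH (2.86 ± 0.94, edgeR adjusted p = 0.0472) and Cd300ld5 too (2.19 ± 0.69, 0.0386). The first call ended without any ICH library, sham 1 or sham 2 (adjusted p 0.0610 to 0.121) and was 2.26 without sham 3, and the second ended without ICH 1, ICH 2, sham 1 or sham 3 (0.0847 to 0.148). Cd300ld4, Cd300e and Cd300lg did not pass in any comparison.

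Siglecs are lectins for sialic acid. Siglec1 (ENSMUSG00000027322, chr2:131069220-131086765, minus strand), the macrophage adhesion receptor sialoadhesin, was at 0.236, 0.273 and 0.353 FPKM in ICH+P7C3-A20, 0.970, 2.36 and 1.76 FPKM in ICH, and 0.191, 0.137 and 0.0666 FPKM in sham. Siglece, an inhibitory member, was at 0.696, 0.954 and 1.24 FPKM in ICH+P7C3-A20, 1.55, 1.57 and 1.14 FPKM in ICH, and 0.330, 0.499 and 0.339 FPKM in sham. Siglech, the DAP12-coupled member of resident microglia and plasmacytoid dendritic cells, was at 4.46, 6.51 and 6.65 FPKM in ICH+P7C3-A20, 6.58, 7.83 and 7.87 FPKM in ICH, and 3.79, 2.97 and 4.16 FPKM in sham. ICH+P7C3-A20 overlapped ICH in Siglece and Siglech and not in Siglec1, and ICH lay above sham in all 3. With ICH the log2 changes were 3.61 ± 0.47 for Siglec1, 1.82 ± 0.34 for Siglece and 0.98 ± 0.16 for Siglech (edgeR adjusted p 0.000294 to 0.00307), the last the smallest rise called among the members. For ICH+P7C3-A20 against ICH they were -2.50 ± 0.44 for Siglec1 (adjusted p = 0.00974, called without each library), -0.51 ± 0.33 for Siglece (0.392) and -0.29 ± 0.16 for Siglech (0.320). Against sham Siglech was higher in ICH+P7C3-A20 by 0.70 ± 0.16 (0.0357), a call that ended without ICH+P7C3-A20 2 (0.0771) or 3 (0.147) or sham 1 (0.0684) or 2 (0.109). Siglecf, an inhibitory member known from eosinophils and some macrophages, rose with ICH by 2.25 ± 0.62 (0.0219), by 2.98 without sham 3. That call ended without ICH 2 (1.83, 0.0892), sham 1 (2.03, 0.0799) or sham 2 (1.96, 0.0703). Siglecg passed in no comparison. Of 6 plasmacytoid dendritic cell genes 1 rose with ICH, and of 4 eosinophil genes the 1 that could be tested rose, and the part of these cells was not tested.

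C-type lectin receptors of myeloid cells rose with ICH in 9 of 17 genes. Clec7a, the beta-glucan receptor dectin-1 with its own activating tail, was at 0.615, 1.44 and 1.57 FPKM in ICH+P7C3-A20, 3.27, 3.66 and 4.44 FPKM in ICH, and 0.216, 0.245 and 0.178 FPKM in sham. Clec4d, the mycobacterial glycolipid receptor MCL, was at 0.294, 1.19 and 1.10 FPKM in ICH+P7C3-A20, 3.39, 5.17 and 3.94 FPKM in ICH, and 0.0476, 0.0594 and 0.0480 FPKM in sham. Clec4n, the mannan receptor dectin-2, was at 0.495, 0.583 and 1.11 FPKM in ICH+P7C3-A20, 3.29, 4.65 and 3.02 FPKM in ICH, and 0.140, 0.0550 and 0 FPKM in sham. All 3 genes had ICH highest and sham lowest with no overlap. Clec4e (Mincle), which senses glycolipids and dead cells, had 11, 19 and 45 counts in ICH+P7C3-A20, 97, 117 and 136 counts in ICH and none in sham, at least 120-fold higher in ICH (edgeR adjusted p = 0.000209).

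On the log2 scale the rises with ICH were 6.15 ± 0.54 for Clec4d, 5.68 ± 0.79 for Clec4n, 4.05 ± 0.35 for Clec7a, 2.64 ± 0.34 for Clec4a3 and 2.26 ± 0.29 for Clec5a, the DAP12-coupled MDL-1 (edgeR adjusted p 2.26e-05 to 0.000470). Clec4n reached 6.84 without sham 1 and 5.06 without sham 3. Lower in ICH+P7C3-A20 than in ICH were 3, Clec4d by a log2 change of -2.25 ± 0.42, Clec7a by a log2 change of -1.59 ± 0.31 and Clec4a3 by a log2 change of -1.61 ± 0.33 (adjusted p 0.0124 to 0.0161). The Clec4d call ended without ICH 2 (0.0566), that of Clec7a without ICH 2 (0.0559) or 3 (0.0558), and that of Clec4a3 without ICH 1 (0.0548), 2 (0.0596) or 3 (0.0601). Clec4n, Clec4e and Clec5a did not pass, at -2.25 ± 0.64, -2.14 ± 0.56 and -0.92 ± 0.28 (adjusted p = 0.0539, 0.0511 and 0.0667), with ICH+P7C3-A20 below ICH in all libraries. Clec10a, a galactose lectin of macrophages, had 69, 50 and 48 counts in ICH+P7C3-A20, 55, 74 and 54 counts in ICH, and 0, 0 and 9 counts in sham. It rose with ICH by 4.41 ± 0.94 (adjusted p = 0.00597, and 8.91 without sham 3), and ICH+P7C3-A20 and ICH overlapped (-0.05 ± 0.75, adjusted p = 0.982).

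Clec4a1 and the inhibitory Clec4a2 were also called higher with ICH, by 3.42 ± 0.87 and 1.73 ± 0.43 (edgeR adjusted p = 0.0152 and 0.0131). The Clec4a1 change was 5.24 without sham 2 and 2.81 without sham 3, and its call ended without sham 1 (0.0579). That of Clec4a2 ended without ICH 2 (0.0523) or sham 1 (0.0517). The inhibitory myeloid receptor Clec12a did not pass, at 0.212, 0.571 and 0.516 FPKM in ICH+P7C3-A20, 0.429, 0.445 and 0.582 FPKM in ICH, and 0.436, 0.477 and 0.785 FPKM in sham. Its ICH change was -0.26 ± 0.33 (adjusted p = 0.639), and all 3 groups overlapped. Clec1a, Clec1b, Clec9a and Clec12b did not pass in any comparison. Against sham, ICH+P7C3-A20 was higher for Clec4d, Clec4e, Clec4n, Clec5a, Clec7a and Clec10a. Without 1 library those calls ended for Clec4n (ICH+P7C3-A20 3, 0.101, and sham 2, 0.0820), Clec5a (ICH+P7C3-A20 3, 0.0995, sham 1, 0.0914, and sham 2, 0.0621) and Clec10a (ICH+P7C3-A20 3, 0.0649, and sham 1, 0.0598). Where a call held, the log2 change was 4.59 and 2.81 for Clec4n without sham 1 and without sham 3 (3.43 with both), and 8.86 for Clec10a without sham 3 (4.36 with it).

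Pilra, the inhibitory receptor for sialylated glycoproteins, was at 0.188, 0.272 and 0.460 FPKM in ICH+P7C3-A20, 1.82, 1.45 and 1.16 FPKM in ICH, and 0, 0.125 and 0.0420 FPKM in sham. It rose with ICH (4.63 ± 0.84, edgeR adjusted p = 0.00243, and 6.03 without sham 2) and did not pass in ICH+P7C3-A20 against ICH (-2.19 ± 0.73, 0.0902), although those groups did not overlap. The gene overlaps Zcwpw1 on the other strand, and 14.7% of its 75-base words occur in other genes. Its activating relative Pilrb2 did not pass. Clec2d (Clr-b), the ligand of an inhibitory natural killer cell receptor, was at 3.41, 5.70 and 4.71 FPKM in ICH+P7C3-A20, 7.6, 10.7 and 9.76 FPKM in ICH, and 2.81, 3.19 and 5.18 FPKM in sham. ICH lay above both other groups, which overlapped each other. It rose with ICH by 1.3 ± 0.23 (0.00236) and was lower in ICH+P7C3-A20 than in ICH by a log2 change of -0.99 ± 0.23 (0.0283). The second call ended without any of 5 libraries, all but ICH+P7C3-A20 2 (0.0506 to 0.118). Clec2i (Clr-g), a related ligand, had 6, 26 and 27 counts in ICH+P7C3-A20, 53, 86 and 50 counts in ICH and none in sham, at least 65.5-fold higher in ICH (0.000671). It overlaps BC035044 on the other strand.

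Of 6 genes that carry a Clec symbol without being myeloid receptors, 1 rose with ICH and the same gene, Clec14a, was lower in ICH+P7C3-A20 than in ICH. Clec16a, an endosomal regulator of autophagy, was at 7.26, 6.53 and 6.52 FPKM in ICH+P7C3-A20, 6.44, 5.71 and 6.61 FPKM in ICH, and 6.85, 7.20 and 6.44 FPKM in sham. Clec2l, a neuronal member, was at 16.2, 16.4 and 12.6 FPKM in ICH+P7C3-A20, 11.8, 12.9 and 12.5 FPKM in ICH, and 10.7, 14.7 and 14.7 FPKM in sham. Neither passed the test in any comparison (edgeR log2 changes with ICH -0.19 ± 0.13 and -0.15 ± 0.15), and ICH and sham overlapped in both. Clec14a, an endothelial adhesion protein, was at 1.05, 1.3 and 1.15 FPKM in ICH+P7C3-A20, 2.10, 1.97 and 2.35 FPKM in ICH, and 0.748, 0.585 and 0.793 FPKM in sham, with no overlap of groups. It rose with ICH by 1.54 ± 0.16 (adjusted p = 8.32e-05) and was lower in ICH+P7C3-A20 than in ICH by a log2 change of -0.82 ± 0.16 (0.0145), a call that ended without ICH 1 (0.0588), 2 (0.0588) or 3 (0.0629). Against sham it was higher in ICH+P7C3-A20 by 0.72 ± 0.16 (0.0286), which ended without ICH+P7C3-A20 2 (0.0699) or 3 (0.111) or sham 2 (0.0847). Clec3b, secreted tetranectin, Clec11a, a bone growth factor, and Clec18a passed in no comparison.

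**Figure D3:**
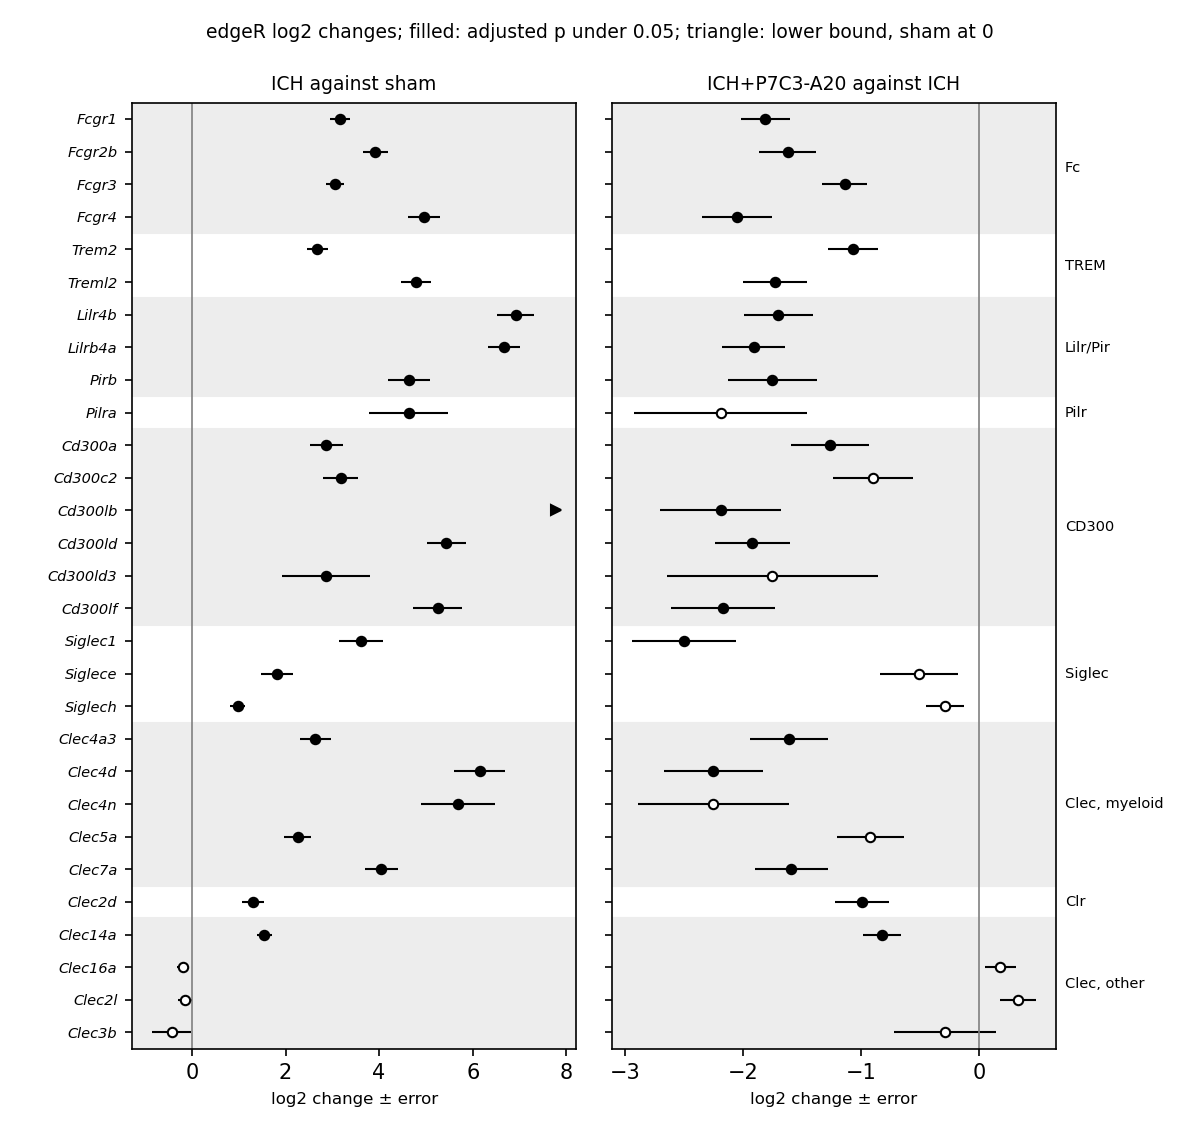
edgeR log2 changes ± error (the change over the root of the test's F) of the genes with a mean of at least 1 FPKM in a group, for ICH against sham and for ICH+P7C3-A20 against ICH, which share the ICH libraries. Filled points have an adjusted p under 0.05, and the triangle for Cd300lb is a lower bound because sham was at 0. Filled points lie to the right of 0 with ICH and to the left of 0 with ICH+P7C3-A20.

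Transcripts of 29 signalling partners of these receptors were set beside them. With ICH 23 rose and 0 fell (15.6% and 10.4% of all genes), the uncalled ones being Fyn, Malt1, Vav3, Ptpn11, Dok2 and Dok3. In ICH+P7C3-A20 17 were lower and 0 higher than in ICH (6.05% and 2.69% of all genes). Against sham 17 were higher and 0 lower in ICH+P7C3-A20 (4.58% and 0.744%). The medians were 2.60, -1.17 and 1.61 in that order. The adaptor gene Tyrobp was at 26.1, 42.8 and 48.0 FPKM in ICH+P7C3-A20, 95.9, 81.6 and 111 FPKM in ICH, and 8.46, 10.7 and 12.3 FPKM in sham. The groups did not overlap, as in Fcer1g. Changes with ICH were 3.15 ± 0.21 for Tyrobp, 3.60 ± 0.29 for Fcer1g, 2.81 ± 0.24 for the kinase gene Syk, 2.98 ± 0.23 for the phosphatase gene Ptpn6, 2.53 ± 0.17 for the lipid phosphatase gene Inpp5d and 3.29 ± 0.21 for the kinase adaptor gene Pik3ap1 (edgeR adjusted p 6.31e-06 to 2.32e-05). In ICH+P7C3-A20 against ICH they were -1.25 ± 0.19 for Tyrobp, -1.43 ± 0.26 for Fcer1g, -1.23 ± 0.23 for Syk, -1.26 ± 0.22 for Ptpn6, -1.09 ± 0.16 for Inpp5d and -1.40 ± 0.19 for Pik3ap1 (adjusted p 0.00636 to 0.0116). Hcst, the DAP10 gene, rose with ICH by 3.22 ± 0.90 (0.0238) and did not pass in ICH+P7C3-A20 against ICH (-1.25 ± 0.81, 0.399). Leaving out 1 library brought the 17 lower calls to between 9 and 14, with 9 without ICH 2 and 11 without ICH 3.

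Of 29 ligands and outside partners 26 were tested. With ICH 15 rose and 2 fell, against 15.6% higher and 10.4% lower of all genes. In ICH+P7C3-A20 7 were lower and 0 higher than in ICH (6.05% and 2.69% of all genes). Against sham 3 were higher and 0 lower in ICH+P7C3-A20 (4.58% and 0.744%). The medians were 0.82, -0.31 and 0.40 in that order. The 7 became 4 without ICH 1, 2 or 3, the 2 became 1 without ICH 2, ICH 3 or sham 1, and the 3 became 6 without ICH+P7C3-A20 1 and 5 without sham 3. Pdpn, the ligand of the platelet receptor encoded by Clec1b, rose with ICH by 2.70 ± 0.19 and was lower in ICH+P7C3-A20 than in ICH by a log2 change of -1.13 ± 0.18 (edgeR adjusted p = 8.07e-06 and 0.00739). The MHC class I genes H2-D1 and H2-K1, which encode ligands of Pirb, rose by 2.12 ± 0.22 and 1.97 ± 0.23 and were lower in ICH+P7C3-A20 than in ICH by a log2 change of -1.49 ± 0.21 and -1.43 ± 0.23 (adjusted p up to 0.00739). Apoe, whose product binds Trem2, rose by 0.66 ± 0.14 (0.00669) and did not pass in ICH+P7C3-A20 against ICH (-0.20 ± 0.14, 0.440). Pglyrp1, a ligand of Trem1, rose by 1.91 ± 0.27 (0.000581) and was lower in ICH+P7C3-A20 than in ICH by a log2 change of -1.04 ± 0.27 (0.0387). Pianp, whose product binds Pilra, and Cmas, which activates sialic acid, fell with ICH by 0.64 ± 0.18 and 0.39 ± 0.09 on the log2 scale (0.0260 and 0.00924).

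Several marker lists of myeloid and vascular cells moved in the same comparisons, and those of lymphoid and dendritic cells had few calls. All 6 pan-myeloid genes rose with ICH and 5 were lower in ICH+P7C3-A20 than in ICH, and their summed level was 71.5 to 136 FPKM in ICH+P7C3-A20, 239 to 263 FPKM in ICH and 26.1 to 35.8 FPKM in sham. Of 10 homeostatic microglia genes 9 rose and 5 were then lower (152 to 258 FPKM in ICH+P7C3-A20, 403 to 471 FPKM in ICH and 83.3 to 114 FPKM in sham). Of 8 monocyte genes 8 rose and 6 were then lower (12.9 to 20 FPKM in ICH+P7C3-A20, 38.8 to 51.2 FPKM in ICH and 5.81 to 6.52 FPKM in sham). Neutrophil genes rose in 4 of 10 and were lower in 1 (6.43 to 11.3 FPKM in ICH+P7C3-A20, 12.5 to 20.6 FPKM in ICH and 2.05 to 3.31 FPKM in sham), and the defining Ly6g was at 0 in 8 of 9 libraries. Border macrophage genes rose in 5 of 7, with 1 lower, and 1 was lower in ICH+P7C3-A20 than in ICH (3.63 to 4.77 FPKM in ICH+P7C3-A20, 7.78 to 9.03 FPKM in ICH and 1.63 to 2.85 FPKM in sham). Of 5 endothelial genes 5 rose and 3 were then lower (23.8 to 39.7 FPKM in ICH+P7C3-A20, 53.9 to 68.9 FPKM in ICH and 16.0 to 26 FPKM in sham), and of 7 platelet genes 2 rose and 1 was then lower (2.20 to 4.32 FPKM in ICH+P7C3-A20, 7.92 to 9.04 FPKM in ICH and 1.28 to 1.75 FPKM in sham). Of 7 dendritic cell genes 1 rose and 0 were then lower (1.56 to 2.5 FPKM in ICH+P7C3-A20, 2.23 to 2.51 FPKM in ICH and 1.19 to 1.57 FPKM in sham). Of 5 B cell genes 1 rose and 0 were then lower, and of 8 T and NK cell genes, 2 of them tested, none was called by edgeR in any comparison (0.026 to 0.197 FPKM in ICH+P7C3-A20, 0.422 to 1.12 FPKM in ICH and 0 to 0.119 FPKM in sham). No mast cell gene passed the filter on low counts. In ICH, 1 gene made up most of the summed level in the monocyte, neutrophil and platelet lists. Fn1 was at 28.5 to 33.7 FPKM, Csf3r at 8.81 to 12.97 FPKM and Pf4 at 5.96 to 7.59 FPKM in that group. The ICH sums of those lists therefore mostly give the levels of these genes, and cannot be read as levels of the cell types. The part of cell numbers in the receptor changes was not tested beyond the scaling that follows.

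Libraries were also scaled by the summed CPM of the 6 pan-myeloid genes. These sums were 290, 350 and 524 in ICH+P7C3-A20, 852, 928 and 744 in ICH, and 141, 124 and 164 in sham. On this scale the 54 tested members lay on both sides of the panel. The scaling was chosen after seeing the data, and on it 86.4% of all genes were lower and 2.07% higher in ICH than in sham. Against that, 24 of the 66 members were higher and 12 lower in ICH, which became 18 and 16 with the panel's geometric mean. Of the 12, 6 were the Clec genes that encode no myeloid receptor. The panel value of each library was taken as known without error, so p-values on this scale leave out its own spread between mice. They cannot be set beside those of the main fit, where Fcgr4 had 4.96 ± 0.35 with an edgeR adjusted p of 8.07e-06. Calls on this scale are therefore less certain than their p-values read. Lilr4b and Lilrb4a stood 4.35 ± 0.35 and 4.10 ± 0.33 above the panel's own change, Clec4d 3.59 ± 0.50 and Fcgr4 2.41 ± 0.41 (edgeR adjusted p up to 9.24e-09). Trem2, Cd300a, Clec4a3 and Fcgr3 did not pass the test against the panel (0.14 ± 0.29, 0.28 ± 0.40, 0.10 ± 0.46 and 0.48 ± 0.29, adjusted p 0.105 to 0.827). Siglech fell behind it by a log2 change of -1.57 ± 0.30 (2.19e-07).

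For ICH+P7C3-A20 against ICH on this scale 11 of 66 members were lower and 7 higher, against 0.699% and 66.1% of all genes. Of the 7 higher, 4 were Clec genes that encode no myeloid receptor. The lower ones were Siglec1 (-1.35 ± 0.37, edgeR adjusted p = 0.000564), Lilrb4a (-0.81 ± 0.29, 0.00837), Cd300lf, Clec4d, Clec4n, Fcgr1, Fcgr4, Lilr4b, Pilra, Pira2 and Treml4. The calls of Siglec1 and Lilrb4a held with the panel's geometric mean and without each library (adjusted p up to 0.0367 and 0.0429), and each of the other 9 was lost in at least 1 of these 7 settings. The count of 11 became 6 with the geometric mean, 7 without ICH+P7C3-A20 1, 3 without ICH 2 and 7 without ICH 3. Trem2 and Fcgr3 did not pass (0.04 ± 0.29 and -0.01 ± 0.29, adjusted p = 0.915 and 0.969). Siglech stood above it (0.86 ± 0.29, 0.00660), a call that ended without ICH 1 (0.0581). In ICH+P7C3-A20 against sham 20 members were higher and 7 lower on this scale (1.5% and 71.3% of all genes). Of those 7 lower, 4 were Clec genes that encode no myeloid receptor.

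**Figure D4:**
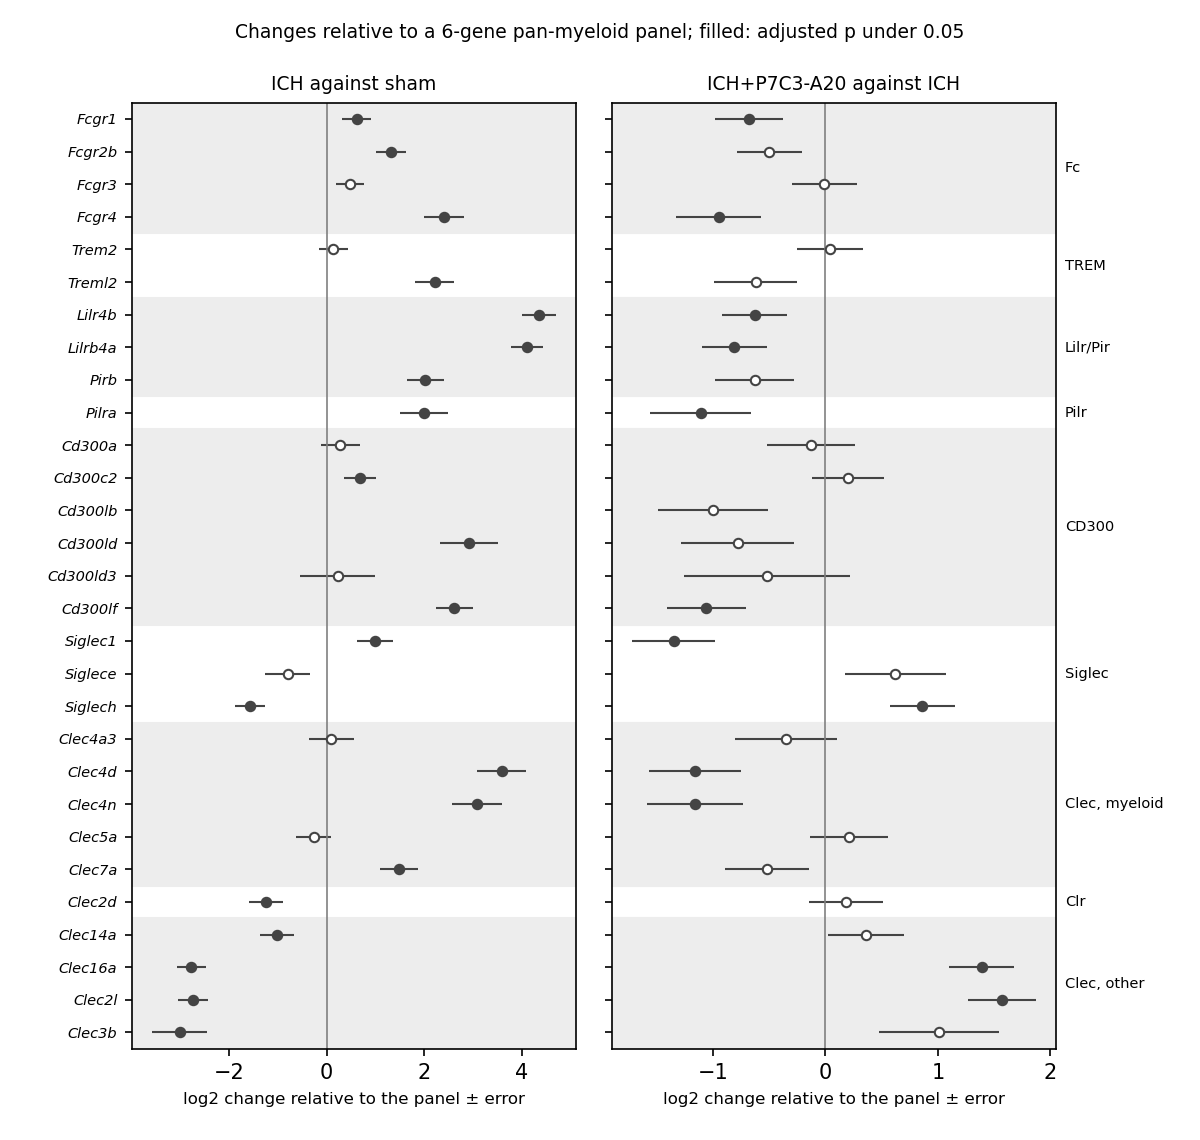
Log2 changes ± error relative to the summed CPM of the 6 pan-myeloid genes, for the genes with a mean of at least 1 FPKM in a group (Cd300lb is left out of the ICH against sham panel because sham was at 0). Filled points have an adjusted p under 0.05. With ICH, Lilr4b and Lilrb4a lie above 4. Clec3b, Clec16a and Clec2l lie lowest there (-3.01, -2.77 and -2.73), and Siglech, Clec2d and Clec14a also lie below -1. With ICH+P7C3-A20 against ICH Siglec1 lies below -1.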

How the data were processed

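RNA from 9 brains, 3 mice a group, was sequenced as stranded dUTP libraries, per the labels' protocols. The submitters' processing notes list StringTie 1.3.4d, HISAT2 2.0.4 and cutadapt 1.9. Build, strand setting and counting step: not given in the sources used here. Per the file headers, the authors deposited an estimated count and an FPKM (fragments scaled by length and depth) for each gene and library. Estimated counts were whole numbers and were used as deposited. All 66 gene IDs occur in GENCODE M21, 61 at identical position and strand, and printed positions are the deposited ones.

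Members and gene lists were chosen with earlier results of these data known. edgeR 4.0.16 (quasi-likelihood, robust, TMM scaling) was fitted in R 4.3.3 with a mean per group on the 9 libraries, leaving 6 degrees of freedom, after filterByExpr (minimum count 10, minimum total 15), on 21900 genes, with Benjamini-Hochberg adjustment and a threshold of 0.05. Errors are the log2 change over the root of the F statistic. The fit relative to the myeloid panel used the summed CPM of Ptprc, Itgam, Csf1r, Aif1, Cd68 and Spi1 as an offset. That offset was taken as known without error. Genes with a mean of at least 1 FPKM in a group were described in full by rule, and other members were named after their values were seen. Alternatives were DESeq2 1.42.0, limma 3.58.1 on log2(FPKM + 1) and log2(FPKM + 0.1), other scalings and filters, the replicate block and leaving out each library. The main edgeR fit was checked on simulated data, and the fit relative to the panel, the exact tests, DESeq2 and limma were not. Figures used matplotlib 3.10.9, and exact tests SciPy 1.17.1 under Python 3.11.15. Intervals from replicates cover the spread between mice, and low counts limit the scarce members.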

Additional observations from a re-analysis of the deposited data

How the results depend on the processing

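Calls for ICH against sham were the most stable, with 39 members called. Under the other settings 28 to 41 were called, and 34 to 38 with 1 library left out. Of the 39 calls, 32 held under every one of these settings that tested the gene. The limma settings with a filter on low FPKM did not test scarce members such as Trem1, Clec4e, Clec2i and Clec10a, so those calls could not end there. For ICH+P7C3-A20 against ICH 20 were called, 20 to 28 under the other settings and 9 to 19 with 1 library left out, and 9 held under all of these settings: Cd300ld, Fcgr1, Fcgr2b, Fcgr3, Fcgr4, Lilr4b, Lilrb4a, Siglec1 and Treml2. For ICH+P7C3-A20 against sham the 26 became 9 with limma on log2(FPKM + 1), 14 with a pseudocount of 0.1, 4 without a filter, 9 after quantile normalization and 15 with only those groups fitted, and 18 to 27 with 1 library left out. The cause was not tested. Signalling partners called in ICH+P7C3-A20 against ICH were 9 to 14 with 1 library left out, and in ICH+P7C3-A20 against sham 8 with limma without a filter. Ligands lower in ICH than in sham were 1 with library totals, with limma at either pseudocount and without a filter, and 1 to 3 with 1 library left out. Ligands called in ICH+P7C3-A20 against ICH were 4 with limma at 0.1 and 4 to 8 with 1 library left out, with 1 higher under DESeq2 and under voom. Ligands higher in ICH+P7C3-A20 than in sham were 7 with DESeq2, 8 with voom and 2 to 6 with 1 library left out. Relative to the panel, lower calls in ICH+P7C3-A20 against ICH were 6 with the geometric mean and 3 to 8 with 1 library left out, both chosen after seeing the data. Directions were compared only for members with a mean of at least 1 FPKM in a group or called in a comparison. Among these, the directions that reversed belonged to uncalled changes. They were Clec4a2 in ICH+P7C3-A20 against sham (-0.05 after quantile normalization), and, in ICH+P7C3-A20 against ICH, Clec10a (-0.34 to 0.17 with 1 library left out, 0.13 and 0.03 without ICH+P7C3-A20 2 and 3, 0.17 without ICH 2), Siglecf (-0.79 to 0.25, 0.12 without ICH+P7C3-A20 2, 0.25 without ICH 2) and Clec3b (-0.62 to 0.04, the last without ICH+P7C3-A20 3). Of all genes called in ICH against sham 60% were higher, 44.7% after quantile normalization (which moved the median of all genes by -0.10), 69.4% with library totals and 78% with limma without a filter. In ICH+P7C3-A20 against ICH that share was 30.8%, 19.5% with library totals and 8.84% with limma without a filter, and against sham 86%, 73.9% with DESeq2 and 97% with limma without a filter. Same-numbered libraries of different groups had correlated deviations of -0.11 to 0.07, and differently numbered ones -0.07 to 0.17. With 3 libraries a group these values show no pairing by number but cannot exclude it. The labels do not say whether a number marks a shared litter, batch or day. With the replicate block 40 members, 24 signalling partners and 16 ligands were called for ICH against sham. It gave 21, 14 and 8 when ICH+P7C3-A20 was set against ICH, and 22, 17 and 4 when it was set against sham.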

Other observations

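Cell type markers outside the myeloid lists moved in their own ways. All 5 neuronal genes fell with ICH, and 1 was higher in ICH+P7C3-A20 than in ICH, with summed levels of 338 to 474 FPKM in ICH+P7C3-A20, 262 to 294 FPKM in ICH and 429 to 453 FPKM in sham. All 4 astrocyte genes rose with ICH and 2 were lower in ICH+P7C3-A20 than in ICH (97.6 to 133 FPKM in ICH+P7C3-A20, 161 to 166 FPKM in ICH and 80.4 to 81.2 FPKM in sham). No oligodendrocyte or choroid plexus gene of 4 each was called by edgeR in any comparison. The oligodendrocyte sum ran from 333 to 836 FPKM within ICH+P7C3-A20, from 812 to 1040 FPKM within ICH and from 612 to 826 FPKM within sham. ICH+P7C3-A20 1, the lowest library of its group for many receptors, stood apart, with the myelin gene Mog at 19.8 FPKM against 59.7 and 45.1 FPKM in ICH+P7C3-A20 2 and 3. The choroid plexus sum ran from 42.5 to 1590 FPKM within ICH+P7C3-A20, from 15.4 to 2350 FPKM within ICH and from 8.09 to 399 FPKM within sham. Their part in the receptor levels was not tested.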
